A study of Bos taurus with 36 samples.

Results

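The step from 3 h to 6 h after lipopolysaccharide was read in the liver of 4 dairy cows, each biopsied at both hours. It rests on 8 of the 36 arrays of the study, 4 at 3 h and 4 at 6 h. The animal identity in the sample labels pairs them. Unless another fit is named, standard errors and p-values come from a fit of all 36 arrays with no term for the cow. They are therefore not those of a paired test, and their spread draws on the other hours too. All 24128 probe sets of the array were fitted, and 9162 genes named by at least 1 probe set were read. All 8 cows were healthy Holstein-Friesian animals in their first lactation, weeks after calving, and all had E. coli lipopolysaccharide (LPS, the endotoxin of the bacterial outer membrane) infused into the right front gland of the udder and saline into the left front gland. The same 4 cows, called here cow 1, 3, 7 and 8 after the number of their -22 h array, gave biopsies before LPS (-22 h) and 3, 6, 9, 12 and 48 h after it, and the other 4 cows at -22, 9 and 48 h only. No array came from an animal without LPS, so the endotoxin, the hour of the day and the biopsies taken before cannot be told apart in these arrays. At 6 h each of the 4 cows had already given the 3 h biopsy. The paper reports a separate control study of saline-infused cows. In it, biopsy sampling changed neither clinical measures nor the genes chosen for measurement.

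The acute phase response is the change of liver output that follows infection or tissue injury. Endotoxin and the cytokines that macrophages release act on hepatocytes through NF-kappaB, C/EBP and STAT3, and these factors switch on early genes without new protein being made. A later wave follows, in which the products of the early genes act on further genes, secreted plasma proteins are made in large amounts, and much of the metabolic work of the hepatocyte is turned down. The liver is also the organ that makes bile acids, glucose and plasma lipoproteins, and these tasks are known to fall during endotoxaemia.

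Levels are log2 signals of the array, on which a difference of 1 is a 2-fold change, and levels of different genes are not compared. Array medians lay between 4.24 and 4.38 at 3 and 6 h. Probe sets near 2 sit at the background of the array, so the fold of a gene that starts or ends there depends on how the background was removed. The liver identity of the biopsies was plain: the hepatocyte markers averaged 14.11 to 14.26 over the 3 h arrays and 13.77 to 13.87 over the 6 h arrays. Markers of the red blood cell averaged 2.58 to 2.78 on the 8 arrays, and 9 of the 10 were below 5 at both hours.

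At the Bonferroni threshold of 0.01, 965 probe sets were higher at 6 h than at 3 h and 1003 were lower, which is 4.00% and 4.16% of all probe sets. All 4 cows shared the direction of change in every one of these 1968 probe sets. The probe sets were called on the mean change of the same 4 cows, so this agreement is largely set by the call. With 1 cow left out the Bonferroni calls fell to between 521 (without cow 8) and 674 (without cow 1) higher and between 582 and 684 lower, while all 1968 probe sets still passed the Benjamini-Hochberg threshold of 0.05. With the 8 arrays fitted alone and the cow as a block, 15 probe sets passed the Bonferroni threshold. Of the 1968, 1960 passed the wider Benjamini-Hochberg threshold in that fit. By this wider call 7828 probe sets (32.4%) were higher and 4393 (18.2%) were lower in the fit of all arrays. Most of the wider upward calls were small: among probe sets with a mean under 5, 4936 were called higher with a median change of 0.08, and 594 were called lower. Among the brighter probe sets 2892 were called higher and 3799 lower, and at 2-fold or more 1850 probe sets of any brightness were higher and 2006 lower. Without cow 3 the wider call took in 3346 probe sets higher and 3534 lower, and without cow 7 it took in 4645 and 3609.

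Of the 9162 genes, 515 (5.62%) were higher and 520 (5.68%) lower by the Bonferroni call, and 2628 (28.7%) and 2304 (25.1%) by the wider call. Genes that passed the wider call with at least a 2-fold change are described below, 843 of them higher (9.20%) and 921 lower (10.1%). In 3346 genes (36.5%) the 4 values at 6 h all lay above the 4 values at 3 h, and in 2159 genes (23.6%) they all lay below. The cows moved alike. Over the 11141 brighter probe sets the change in a cow, set against the mean change of the other cows, had a slope of 0.86 in cow 1, 0.933 in cow 3, 1.05 in cow 7 and 1.03 in cow 8.

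The genes that moved by at least 2-fold were divided by what they had done up to 3 h. Against -22 h, 238 genes (2.60%) had been higher at 3 h by at least 2-fold and 65 (0.709%) lower. Genes that were near their -22 h level at 3 h (no call and a change under 0.5) and then moved made up most of the second wave: 539 first rose between 3 and 6 h and 702 first fell. Their median change by 3 h was 0.14 and -0.16, and with a limit of 0.3 in place of 0.5 the counts were 399 and 505. A further 94 genes that were already high rose further and 30 that were already low fell further. In 30 genes that were high at 3 h the level was receding by 6 h, and 2 genes that had been low at 3 h, BAMBI and ID3, were returning (4 genes without cow 3, 3 without cow 7). The remaining 208 higher and 159 lower genes met none of these rules. Their change by 3 h was called but under 2-fold, or was at least 0.5 without a call. It could go either way: TRIB3 changed by -0.87 up to 3 h and then rose, and PDK4 by 0.81 and then fell. The 3 h arrays enter both steps, so a chance deviation at 3 h would move a gene in opposite directions in them, and the classes are a description without a test. The largest genes of each class were picked only among those that moved in the same direction in all 4 cows. Remarks below that their cows moved alike repeat this condition.

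**Figure D1:**
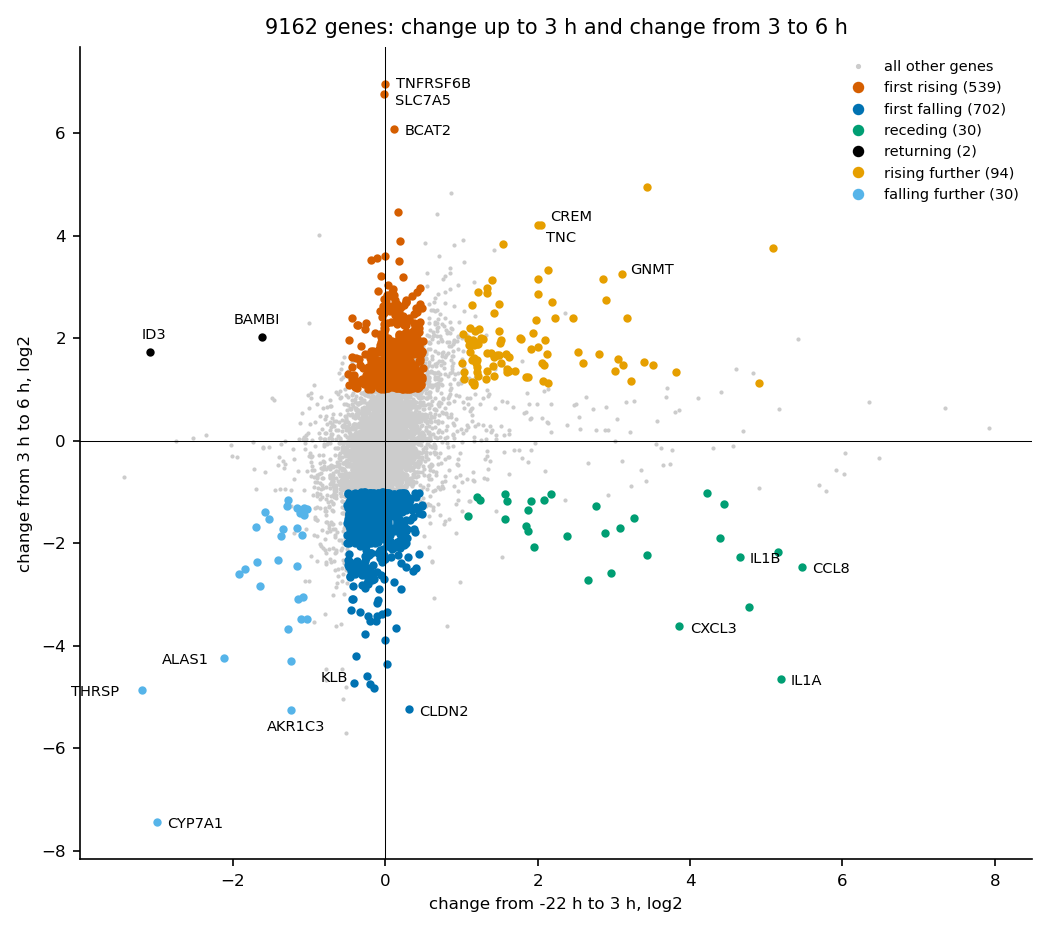
Change from -22 h to 3 h (horizontal axis, log2) against change from 3 h to 6 h (vertical axis, log2) for 9162 genes, 1 point per gene, coloured by timing class. Most coloured points lie near the vertical axis, where 539 genes first rose and 702 first fell, and the 30 receding genes lie at the lower right; both axes use the 3 h arrays.

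The levels at 9, 12 and 48 h, hours that the class rule did not compare, show how long the larger classes stayed away. Levels at -22, 3 or 6 h are given beside them, and the rule used these hours. The first rising genes averaged 6.77 ± 0.12 (SD, n = 8 cows) at -22 h, 6.89 ± 0.08 (n = 4) at 3 h and 8.50 ± 0.05 (n = 4) at 6 h. They stood at 8.49 ± 0.07 (n = 8) at 9 h, 8.00 ± 0.13 (n = 4) at 12 h and 6.67 ± 0.16 (n = 8) at 48 h. The class thus stayed up through 9 h: 447 of the 539 were still at least 2-fold above -22 h at 9 h, where 15.7% of all genes were. The first falling genes averaged 8.38 ± 0.07 (n = 8) at -22 h, 8.24 ± 0.06 (n = 4) at 3 h and 6.67 ± 0.05 (n = 4) at 6 h. They stood at 6.52 ± 0.07 (n = 8) at 9 h, 7.13 ± 0.20 (n = 4) at 12 h and 8.30 ± 0.14 (n = 8) at 48 h. Of the 702, 534 were at least 2-fold below -22 h at 9 h, against 15.4% of all genes. The 9 h counts of the classes are set against the -22 h arrays, which the class rule also used. The receding genes stood at 7.56 ± 0.30 (n = 4) at 3 h, 5.70 ± 0.18 (n = 4) at 6 h and 5.14 ± 0.19 (n = 8) at 9 h, beside 4.64 ± 0.13 (n = 8) at -22 h. At 9 h 7 of these 30 were at least 2-fold above -22 h. The class stood at 5.26 ± 0.40 (n = 4) at 12 h and 4.62 ± 0.17 (n = 8) at 48 h. The genes that rose further were highest at 6 h, with 10.69 ± 0.10 (n = 4) beside 10.16 ± 0.22 (n = 8) at 9 h, and those that fell further were lowest at 6 h, with 4.82 ± 0.16 (n = 4) beside 5.42 ± 0.17 (n = 8). At 12 h the 2 classes stood at 9.44 ± 0.48 and 6.38 ± 0.33 (n = 4). At 48 h they stood at 7.12 ± 0.35 and 8.32 ± 0.32 (n = 8). At each of 3 and 6 h the 4 cows lay closer to each other than the hours did in all of these classes. The genes were chosen for their change between these hours on the same arrays, so this follows from the rule.

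**Figure D2:**
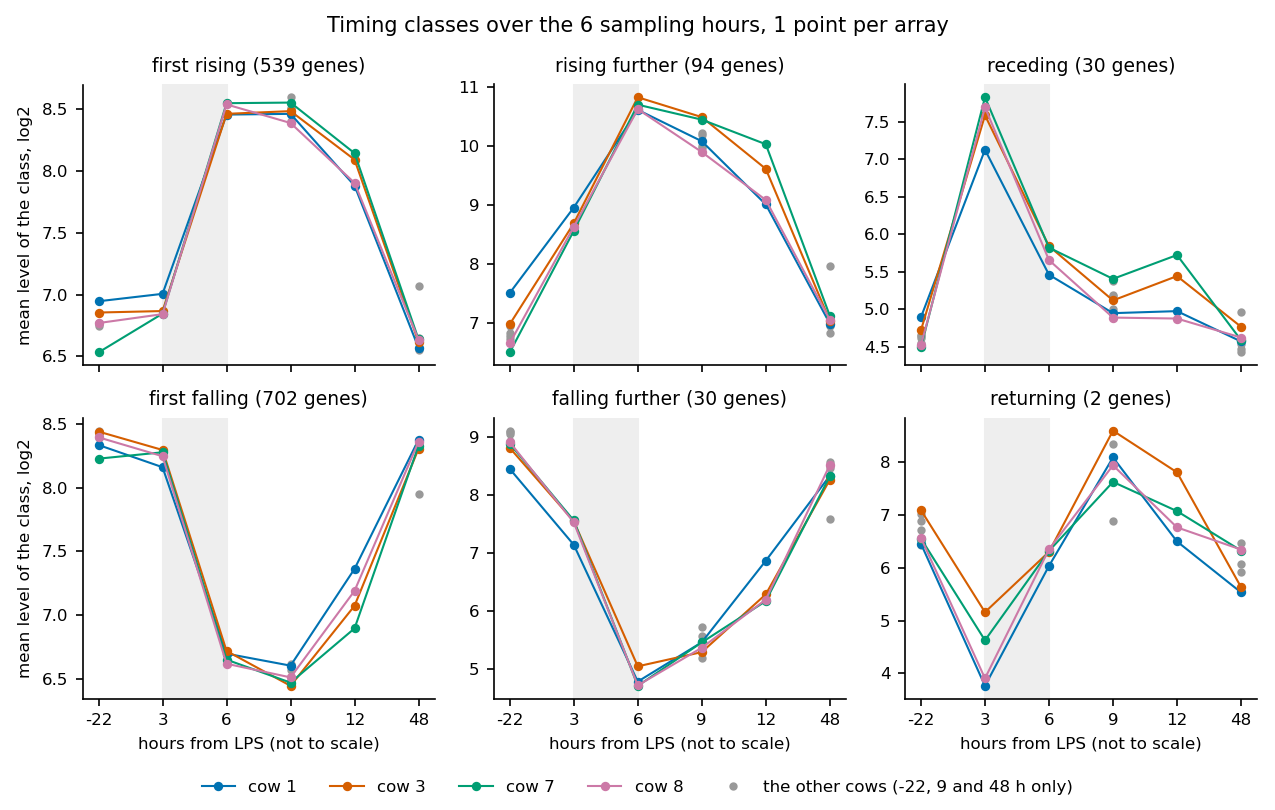
Mean log2 level of the genes of each timing class on every array, over the 6 sampling hours (horizontal axis, not to scale), with lines for the 4 cows sampled at all hours and grey points for the other cows. The step from 3 to 6 h is shaded; the first rising class climbs from 6.89 to 8.50 in it and the first falling class drops from 8.24 to 6.67.

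Among the genes that first rose, TNFRSF6B, which encodes a soluble decoy receptor of the tumour necrosis factor receptor family, made the largest change. Its level at 3 h was 1.62, 1.64, 1.66 and 1.62 in cow 1, 3, 7 and 8, and at 6 h it was 8.47, 8.44, 8.29 and 9.21. All 4 cows left the background of the array within the step and the hours did not overlap. The rise was 6.96 ± 0.13 (SE, limma adjusted p = 1.03e-27), and the level went on to 10.56 ± 0.26 (SD, n = 8) at 9 h.

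SLC7A5 encodes the light chain of the carrier that takes large neutral amino acids into cells. It stood at 1.96, 1.91, 1.90 and 1.90 at 3 h and at 8.40, 9.01, 8.94 and 8.37 at 6 h in the same order of cows. Again every cow went from background to a clear signal, a rise of 6.76 ± 0.33 (adjusted p = 9.4e-16). BCAT2, the mitochondrial enzyme that starts the breakdown of branched-chain amino acids, read 3.46, 2.92, 3.40 and 3.49 at 3 h and 10.51, 8.82, 9.16 and 9.09 at 6 h. The hours lay far apart (change 6.08 ± 0.36, adjusted p = 2.65e-14), but the other probe set of the gene moved by 0.06, so the rise rests on 1 of 2 probe sets.

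MTHFD2, a mitochondrial enzyme of folate metabolism, was at 2.39, 2.38, 2.35 and 2.35 at 3 h and at 6.06, 6.14, 6.03 and 5.65 at 6 h. All cows rose by a like amount, and the change was 3.60 ± 0.29 (adjusted p = 1.57e-11). MARCHF3, a membrane-bound ubiquitin ligase, rose by 4.47 ± 0.49 from 3.75, 3.09, 3.12 and 3.32 to 7.28, 8.18, 8.50 and 7.18 (adjusted p = 1.09e-08). CTU1, which modifies transfer RNAs, rose by 3.52 ± 0.25 from 4.28, 4.87, 4.81 and 4.47 to 7.94, 8.12, 8.33 and 8.13 (adjusted p = 2.25e-12). In these genes too the lowest cow at 6 h was well above the highest cow at 3 h. The other genes among the 10 largest were ZNF385B, a zinc finger protein (3.89 ± 0.34), AOC2, an amine oxidase (3.50 ± 0.30), SCNN1A, a subunit of the epithelial sodium channel (3.2 ± 0.39), and THAP1, a transcription factor (3.03 ± 0.35).

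Among the genes that first fell, CLDN2, which encodes a tight junction protein that forms pores for cations and water, made the largest change. It read 7.71, 8.44, 8.19 and 7.71 in cow 1, 3, 7 and 8 at 3 h and 3.34, 2.68, 2.83 and 2.24 at 6 h. Each cow fell to near background, by 5.24 ± 0.45 in the fit (adjusted p = 8.88e-11). The loss did not last: at 9 h the level was 7.16 ± 1.17 (SD, n = 8), against 7.70 ± 0.38 (n = 8) at -22 h. 2 related junction genes fell too, with changes of -3.41 ± 0.43 in CLDN1 (adjusted p = 1.2e-07) and -3.37 ± 0.37 in CLDN5 (adjusted p = 1.12e-08). DSC2, a cadherin of desmosomes, fell by 4.83 ± 0.38, from 7.99, 8.34, 8.29 and 8.34 to 3.61, 2.72, 3.66 and 3.65 (adjusted p = 1.13e-11).

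KLB encodes beta-Klotho, the co-receptor through which the intestinal hormone that represses bile acid synthesis is sensed. It stood at 9.60, 9.86, 10.77 and 10.76 at 3 h and at 5.25, 6.10, 5.79 and 5.51 at 6 h. All cows fell, by 4.58 ± 0.42 in the fit (adjusted p = 3.96e-10), and the level was lower still at 9 h, 2.86 ± 0.20 (SD, n = 8). The 4 probe sets of KLB ranged in change from -5.08 to 0.10. FGFR2, a fibroblast growth factor receptor, went from 9.62, 10.10, 10.07 and 10.34 to 6.62, 5.97, 5.81 and 6.22. Cow 1 moved least in it, yet the hours did not overlap (change -3.88 ± 0.23, adjusted p = 2.56e-14), and its 5 probe sets ranged from -3.88 to 0.05.

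SMPD3, a sphingomyelinase that makes ceramide, had the smallest adjusted p of the 10 largest falls. It read 8.49, 8.01, 8.40 and 8.13 at 3 h and 4.02, 4.37, 4.10 and 3.15 at 6 h (change -4.35 ± 0.20, adjusted p = 3.47e-16). GAS2, a protein of the microfilament network, fell by 4.72 ± 0.28 and was at 2.38 ± 0.12 (SD, n = 8) at 9 h. MICU3, a regulator of mitochondrial calcium uptake, fell by 3.77 ± 0.21 from 8.55, 9.02, 8.43 and 8.92 to 5.21, 4.70, 4.44 and 5.48. All 4 cows shared these falls, which was a condition for naming the genes. MGAT4A, which branches N-glycans, and VSNL1, a neuronal calcium sensor, changed by -4.74 ± 0.57 and -4.20 ± 0.32 in their brightest probe set, while their other probe set moved by -0.51 and 0.10. SYBU, which links vesicles to kinesin, fell by 3.65 ± 0.27.

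**Figure D3:**
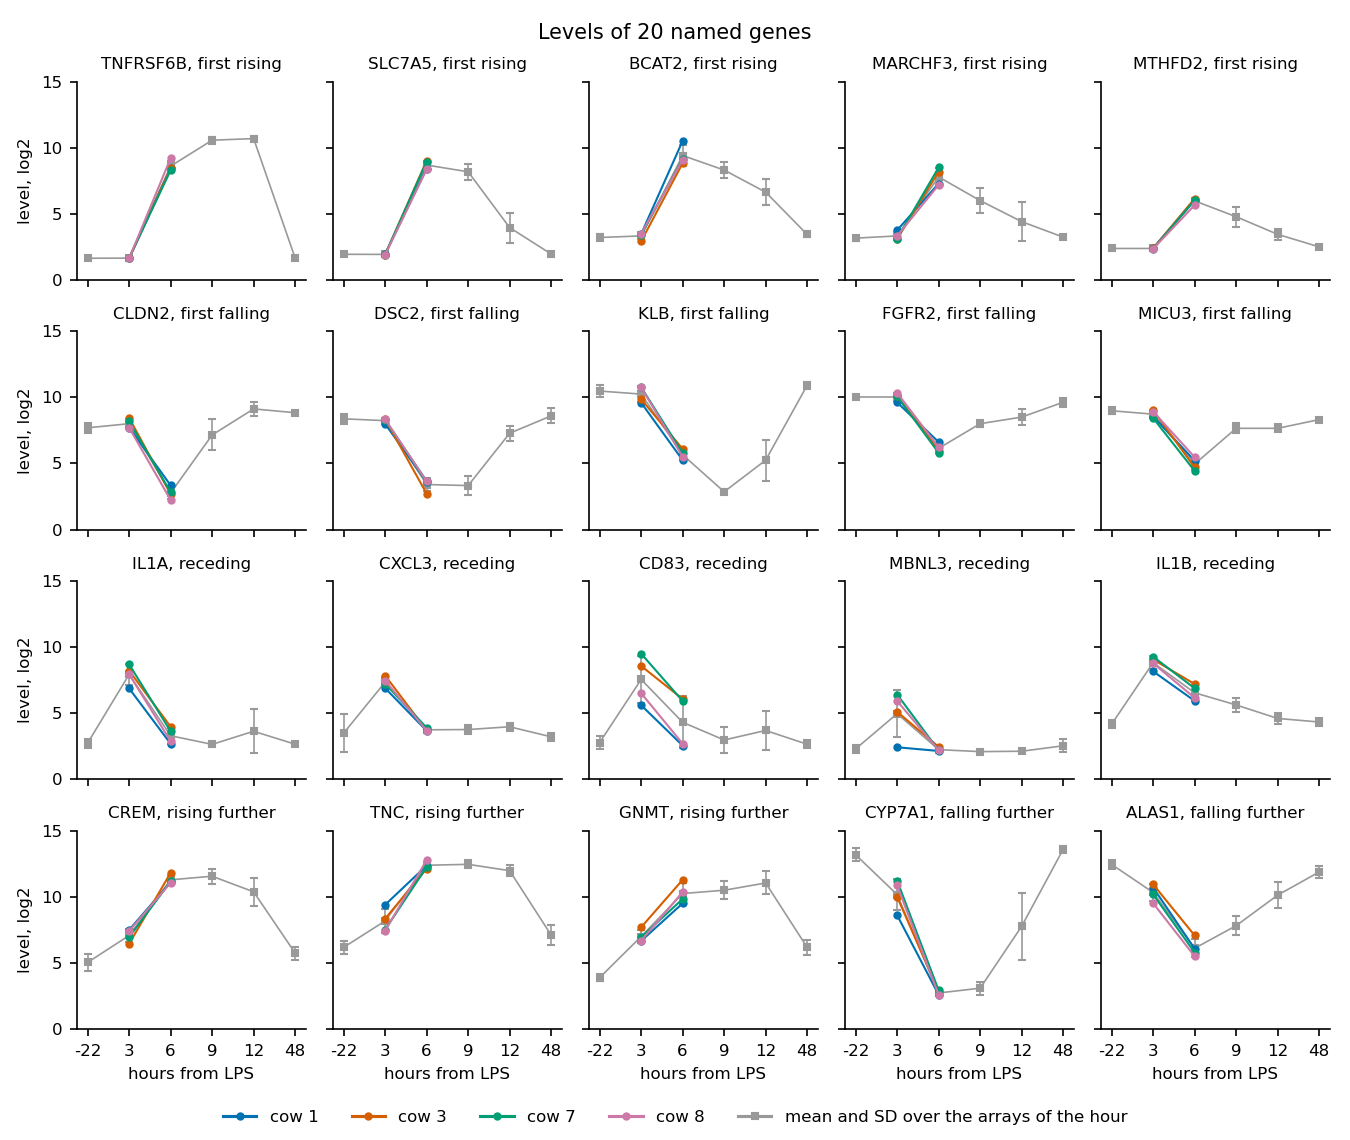
Log2 levels of 20 named genes over the 6 sampling hours (horizontal axis, hours from LPS, not to scale): coloured lines join the 3 and 6 h values of cow 1, 3, 7 and 8, and grey squares with bars give the mean and SD over the arrays of each hour. TNFRSF6B and SLC7A5 leave levels under 2 at 3 h in every cow, CLDN2 falls and comes back by 9 h, and IL1A falls from the 3 h peak.

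Of the 30 receding genes 5 were chemokines (CCL3, CCL4, CCL8, GRO1 and CXCL3) and 3 were cytokines (IL1A, IL1B and CSF1), of 26 chemokines and 44 cytokine and receptor genes measured, while 0.327% of all genes were receding. Only genes at least 2-fold higher at 3 h could recede. These were 10 of the chemokines, 8 of the cytokine list and 238 of all genes. In the cytokine list 4 genes rose further, and in the chemokine list 0 did. Without cow 7, 22 genes were receding and 3 chemokines in place of 6 passed the wider call downward. IL1A encodes interleukin-1 alpha, a cytokine released early after endotoxin. It was at 6.88, 8.22, 8.70 and 7.95 at 3 h and at 2.69, 3.98, 3.63 and 2.88 at 6 h in cow 1, 3, 7 and 8. Every cow fell, by 4.64 ± 0.44 in the fit (adjusted p = 6.02e-10), to a mean 0.55 above -22 h. IL1B, interleukin-1 beta, went from 8.17, 9.07, 9.28 and 8.78 to 5.94, 7.21, 6.89 and 6.17, a change of -2.27 ± 0.30 (adjusted p = 3.69e-07). The fall of IL1B was incomplete, since its mean at 6 h was still 2.37 above -22 h, and 51.0% of its 3 h change was left, against 10.5% in IL1A.

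CXCL3, a chemokine for neutrophils, and CCL8, one for monocytes, fell too. CXCL3 read 6.90, 7.85, 7.23 and 7.47 at 3 h and 3.68, 3.70, 3.91 and 3.69 at 6 h (change -3.62 ± 0.51, adjusted p = 1.02e-06), and at -22 h it averaged 3.50 ± 1.41 (SD, n = 8). CCL8 went from 7.89, 8.37, 8.53 and 9.26 to 5.75, 5.42, 5.73 and 7.31 (change -2.46 ± 0.43, adjusted p = 2.4e-05). In both the cows at 6 h lay below all cows at 3 h. GRO1, a neutrophil chemokine, fell by 1.85 ± 0.33 (adjusted p = 3.82e-05) in its brightest probe set, but the mean of its 4 probe sets moved by -1.07 (adjusted p = 0.0878).

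CD83 and MBNL3 were uneven between cows. CD83, a surface protein of activated antigen-presenting cells, read 5.61, 8.58, 9.51 and 6.52 at 3 h and 2.56, 6.08, 5.93 and 2.70 at 6 h. All cows moved down, but cows 3 and 7 at 6 h lay above cow 1 at 3 h (change -3.24 ± 0.77, adjusted p = 0.0011). On the 8 arrays alone without the block its adjusted p was 0.0673. MBNL3, a splicing regulator, was at 2.43 in cow 1 at 3 h, near background, and at 5.11, 6.42 and 5.93 in the others. At 6 h it was at 2.15 to 2.46 in all (change -2.72 ± 0.44, adjusted p = 7.43e-06; adjusted p = 0.0562 with the cow as a block on the 8 arrays). RGS16, which shortens G protein signals, fell by 2.58 ± 0.38 with cows close to each other at both hours, and ACKR3, a chemokine scavenging receptor, by 2.22 ± 0.46. CSF1, the macrophage growth factor, fell by 1.79 ± 0.31 (adjusted p = 2.69e-05; its other probe set moved by -0.28), and NFKBIA, the inhibitor that ends NF-kappaB signals, by 1.01 ± 0.34 (adjusted p = 0.0157).

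Not all genes that were high at 3 h had started down. Of the 238, 94 rose at least 2-fold further, 30 fell at least 2-fold, and the rest did neither. CCL2, a monocyte chemokine, stood at 10.70, 11.47, 11.15 and 10.50 at 3 h and at 10.33, 11.35, 10.97 and 9.86 at 6 h, a change of -0.33 ± 0.83 (adjusted p = 0.766). PTGS2, the inducible enzyme of prostaglandin synthesis, changed by -0.57 ± 0.82 (adjusted p = 0.584), and SOCS3, a feedback inhibitor of cytokine receptors, by 0.62 ± 0.56 (adjusted p = 0.368; adjusted p = 0.013 with the cow as a block on the 8 arrays). In the fit of all arrays, which has no term for the cow, the changes of these 3 genes were less than their standard error or little more. CCL2 was nonetheless lower at 6 h than at 3 h in each of the 4 cows. BAMBI, a pseudoreceptor that dampens transforming growth factor beta, rose from 3.92, 5.27, 4.51 and 3.69 to 6.24, 6.04, 6.57 and 6.65 (change 2.03 ± 0.41, adjusted p = 0.000167) and ID3, which binds helix-loop-helix factors and keeps them off DNA, rose by 1.74 ± 0.31 (adjusted p = 2.73e-05).

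Among the genes that rose further and passed the Bonferroni threshold, CREM, a transcription factor of the cyclic AMP pathway, made the largest change. It read 7.51, 6.47, 6.97 and 7.43 at 3 h and 11.13, 11.83, 11.18 and 11.08 at 6 h. All cows rose by more than they differed (change 4.21 ± 0.43, adjusted p = 2.52e-09), although the 6 probe sets of the gene ranged from -0.02 to 4.21. TNC, the matrix protein tenascin C, rose by 4.21 ± 0.40 from 9.41, 8.36, 7.54 and 7.45 to 12.38, 12.14, 12.27 and 12.79. The cows that were lowest at 3 h ended level with the others, and the other probe set of TNC moved by 0.21. PDXK, which activates vitamin B6, rose by 3.84 ± 0.34, GNMT, which spends methyl groups from S-adenosylmethionine, by 3.25 ± 0.42 and DDX39A, an RNA helicase, by 3.14 ± 0.43. PTX3, a long pentraxin that binds microbes, had the largest rise among the positive acute phase proteins, from 7.70, 7.34, 7.15 and 7.94 to 10.06, 11.54, 11.70 and 11.88 (change 3.76 ± 0.67, adjusted p = 3.5e-05).

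CYP7A1, the enzyme that opens the making of bile acids and sets its rate, led the genes that fell further and had the largest change of the 238 named genes. It stood at 8.62, 10.01, 11.23 and 10.87 at 3 h and at 2.60, 2.83, 2.93 and 2.60 at 6 h. The cows differed widely at 3 h, on the way down from 13.19 ± 0.50 (SD, n = 8) at -22 h, and had all reached background at 6 h (change -7.44 ± 0.66, adjusted p = 1.71e-10). AKR1C3, an aldo-keto reductase of steroids, went from 12.11, 13.26, 13.16 and 12.79 to 6.55, 8.58, 7.61 and 7.54 (change -5.26 ± 0.39, adjusted p = 4.58e-12). THRSP, a lipogenic nuclear protein, read 6.79, 4.93, 8.44 and 8.85 at 3 h and 2.24 to 2.84 at 6 h (change -4.86 ± 0.72). In both genes all cows were lower at 6 h. PPP1R3B, which brings a phosphatase to glycogen, fell by 4.30 ± 0.33 and ALAS1, which sets the rate of heme synthesis, fell by 4.23 ± 0.43.

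Gene lists are described by how many of their measured members passed the wider call in each direction and by the median change, beside 28.7% higher, 25.1% lower and a median of 0.04 over all genes. Ribosome biogenesis, the making of ribosomal RNA and its assembly in the nucleolus, stood highest: 72 of 80 genes rose, 2 fell and the median change was 1.45. The median in single cows was 1.14, 1.33, 1.53 and 1.55 in cow 1, 3, 7 and 8, and none of the 80 genes had been 2-fold changed at 3 h. DDX18, a nucleolar helicase, went from 6.58, 6.19, 6.41 and 6.64 to 9.26, 9.87, 9.85 and 9.48 (change 3.16 ± 0.33), though its other probe set moved by 0.11, and DDX21, a helicase of the same organelle, rose by 3.03 ± 0.25. NOP2, a ribosomal RNA methyltransferase, stood at 7.35, 7.20, 7.24 and 7.35 at 3 h and at 9.87, 10.15, 10.17 and 10.27 at 6 h (change 2.83 ± 0.18, adjusted p = 8.4e-14). In each of these the cows of an hour lay within a narrow band. NCL, nucleolin, the brightest of the list, rose by 1.60 ± 0.11. The ribosomal proteins themselves moved little: 15 of 63 rose, 1 fell (0 without cow 8), none by 2-fold, and the median change was 0.09.

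Chaperones followed. Heat shock proteins and chaperonins rose in 33 of 49 genes and fell in 4, with a median change of 1.10 and cow medians of 0.92, 1.20, 1.05 and 0.93. DNAJA4, a co-chaperone, read 7.39, 7.38, 6.68 and 5.81 at 3 h and 9.92, 12.48, 10.60 and 9.19 at 6 h (change 3.73 ± 0.85, adjusted p = 0.000747). Cow 3 stood apart upward at 6 h. HSPA4 rose by 2.66 ± 0.25 (adjusted p = 7.15e-10), CHORDC1 by 2.88 ± 0.47 (adjusted p = 1.02e-05) and HSPA8, the brightest and a constitutive chaperone, by 1.21 ± 0.35 (adjusted p = 0.00661). Genes of protein folding and secretory entry in the endoplasmic reticulum rose in 37 of 69 cases and fell in 7 (3 without cow 3; median 0.65). HYOU1, a chaperone there, went from 9.50, 8.07, 9.22 and 8.94 to 12.39, 11.94, 12.44 and 12.32 (change 3.34 ± 0.59, adjusted p = 2.94e-05), and its 5 probe sets ranged from 0.04 to 4.84. HSP90B1, the brightest of that list, rose by 1.10 ± 0.18.

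Genes of transfer RNA loading, translation and splicing rose more often than they fell. Of 31 aminoacyl-tRNA synthetases, which load amino acids on transfer RNAs, 18 rose and 5 fell (median 0.76, from 0.34 in cow 3 to 0.85 in cow 1). CARS1 rose by 2.74 ± 0.27 (adjusted p = 1.34e-09), GARS1 by 2.64 ± 0.29 (adjusted p = 9.89e-09) and LARS2, the mitochondrial leucine enzyme, by 2.90 ± 0.27 (adjusted p = 5.25e-10). Of 47 translation factors 26 rose and 4 fell (2 without cow 3; median 0.35). ETF1 and GSPT1, which release the finished chain, rose by 2.17 ± 0.20 and 2.06 ± 0.11, and EEF2K, which brakes elongation, fell by 2.35 ± 0.20. Of 73 splicing factors 46 rose and 4 fell (0 without cow 3; median 0.46), with PRPF38B at 1.93 ± 0.29 and HNRNPAB at 1.91 ± 0.20.

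Amino acid transporters were split, with 9 of 19 higher, 4 lower, 7 below 5 at both hours and a median of 0.07. SLC7A5 led them, and SLC7A1, a carrier of basic amino acids, rose by 3.28 ± 0.48 (adjusted p = 1.95e-06). SLC1A4, a carrier of alanine and serine, rose from 2.36, 2.43, 2.54 and 2.56 to 2.99, 6.69, 5.87 and 4.47, least in cow 1 (change 2.53 ± 0.37, adjusted p = 2.05e-06; adjusted p = 0.0531 with the cow as a block on the 8 arrays). In the list of the ATF4 stress response, which senses amino acid shortage and misfolded protein, 13 of 28 rose and 5 fell (median 0.47). TRIB3, a pseudokinase of that response, read 6.71, 6.44, 6.08 and 5.40 at 3 h and 9.44, 11.44, 10.61 and 9.19 at 6 h (change 4.01 ± 0.57, adjusted p = 1.19e-06). Its 4 cows all rose, cow 3 the most.

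Metabolic lists went the other way. In bile acid synthesis and transport 15 of 23 genes fell and 1, SLC51A, rose (2 without cow 1), with a median of -0.79 and cow medians between -1.03 and -0.86. Besides CYP7A1, AKR1C3 and KLB, ABCG8, which exports sterols into bile, went from 6.12, 7.21, 7.32 and 7.27 to 2.33, 2.33, 2.34 and 2.24 (change -4.67 ± 0.51, adjusted p = 7.84e-09). All cows had lost its signal at 6 h. AKR1C4, the brightest of the list, changed by -0.39 ± 0.18 (adjusted p = 0.0702; adjusted p = 0.00405 with the cow as a block on the 8 arrays). In lipogenesis and triglyceride synthesis 18 of 34 fell and 1 rose (2 without cow 1; median -0.81). GPAM, which starts triglyceride assembly, fell by 3.62 ± 0.36, from 10.46, 10.23, 10.53 and 10.82 to 6.73, 6.70, 7.46 and 6.69 (adjusted p = 1.98e-09). ACACA, acetyl-CoA carboxylase, read 6.66, 4.42, 7.83 and 6.58 at 3 h and 3.39, 2.95, 4.43 and 3.70 at 6 h, where cow 7 at 6 h overlapped cow 3 at 3 h (change -2.75 ± 0.63, adjusted p = 0.000697).

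In gluconeogenesis and glycogen metabolism 15 of 32 genes fell and 3 rose (1 without cow 3; median -0.63). PCK1, which commits carbon to glucose, was at 14.46, 14.39, 14.64 and 14.79 at 3 h and at 11.68, 11.50, 11.70 and 11.86 at 6 h. The cows were alike at both hours, and the change was -2.89 ± 0.34 (adjusted p = 4.55e-08). PFKFB2, which sets the level of the glycolytic activator fructose bisphosphate, fell by 3.08 ± 0.32 (adjusted p = 4.52e-09), with its 3 probe sets between -3.90 and -0.01. G6PC1, the last enzyme of glucose release, changed by -0.02 ± 0.28 (adjusted p = 0.951), and PPARGC1A, a coactivator of gluconeogenic genes, rose by 2.31 ± 0.42 (adjusted p = 4.46e-05). In glycolysis and its control 4 of 25 rose (2 without cow 3) and 7 fell (4 without cow 1; median -0.14). PDK4 and PDK2, kinases that hold back pyruvate dehydrogenase, changed by -3.62 ± 0.62 and -2.38 ± 0.20, and SLC16A1, a carrier of lactate and pyruvate, rose by 2.66 ± 0.32 (adjusted p = 4.75e-08).

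Fatty acid oxidation and ketogenesis fell in 23 of 38 genes and rose in 2 (0 without cow 3; median -0.50). CPT2, which passes fatty acids into mitochondria, was at 10.39 to 10.51 at 3 h and 8.47 to 8.85 at 6 h (change -1.77 ± 0.13, adjusted p = 2.13e-12). Amino acid degradation and the urea cycle fell in 34 of 59 and rose in 4 (median -0.50), and the 4 were BCAT1, BCAT2, GNMT and SDS, the last of which breaks down serine and rose by 2.70 ± 0.55 (adjusted p = 0.00018). ARG1, arginase, the brightest of that list, changed by -0.21 ± 0.14 (adjusted p = 0.207). Drug metabolism fell in 28 of 49 and rose in 3 (median -0.59): UGT2B10, a glucuronidating enzyme, fell by 3.30 ± 0.32 (adjusted p = 8.5e-10), while SULT1E1, which inactivates oestrogen, rose by 3.56 ± 0.62 (adjusted p = 2.57e-05). Cholesterol synthesis fell in 8 of 18 and rose in 1 (median -0.50), unevenly between cows, from -0.82 in cows 7 and 8 to -0.25 in cows 1 and 3, and only 4 genes passed without cow 7. In the citric acid cycle and oxidative phosphorylation 48 of 90 fell, none by 2-fold, and 6 rose (median -0.25). SUCLA2, a subunit of succinyl-CoA ligase, was an exception with a rise of 2.85 ± 0.22 (adjusted p = 7.49e-12).

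Hepatocyte transcription factors and nuclear receptors were divided, with 9 of 34 higher, 14 lower and a median of -0.21. KLF15, a factor of fasting metabolism, read 11.02, 11.17, 11.30 and 11.22 at 3 h and 7.64, 7.43, 7.59 and 7.96 at 6 h. The cows were nearly equal at each hour, so that the change of -3.52 ± 0.26 (adjusted p = 3.15e-12) far exceeded their spread. HLF, a factor under clock control, fell by 2.77 ± 0.26 (adjusted p = 4.57e-10) and PER2, a clock repressor, by 1.85 ± 0.38 (adjusted p = 0.000209). PPARD, a lipid-sensing receptor, rose by 2.62 ± 0.27 (adjusted p = 2.63e-09), with its 3 probe sets between 0.05 and 2.62.

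**Figure D4:**
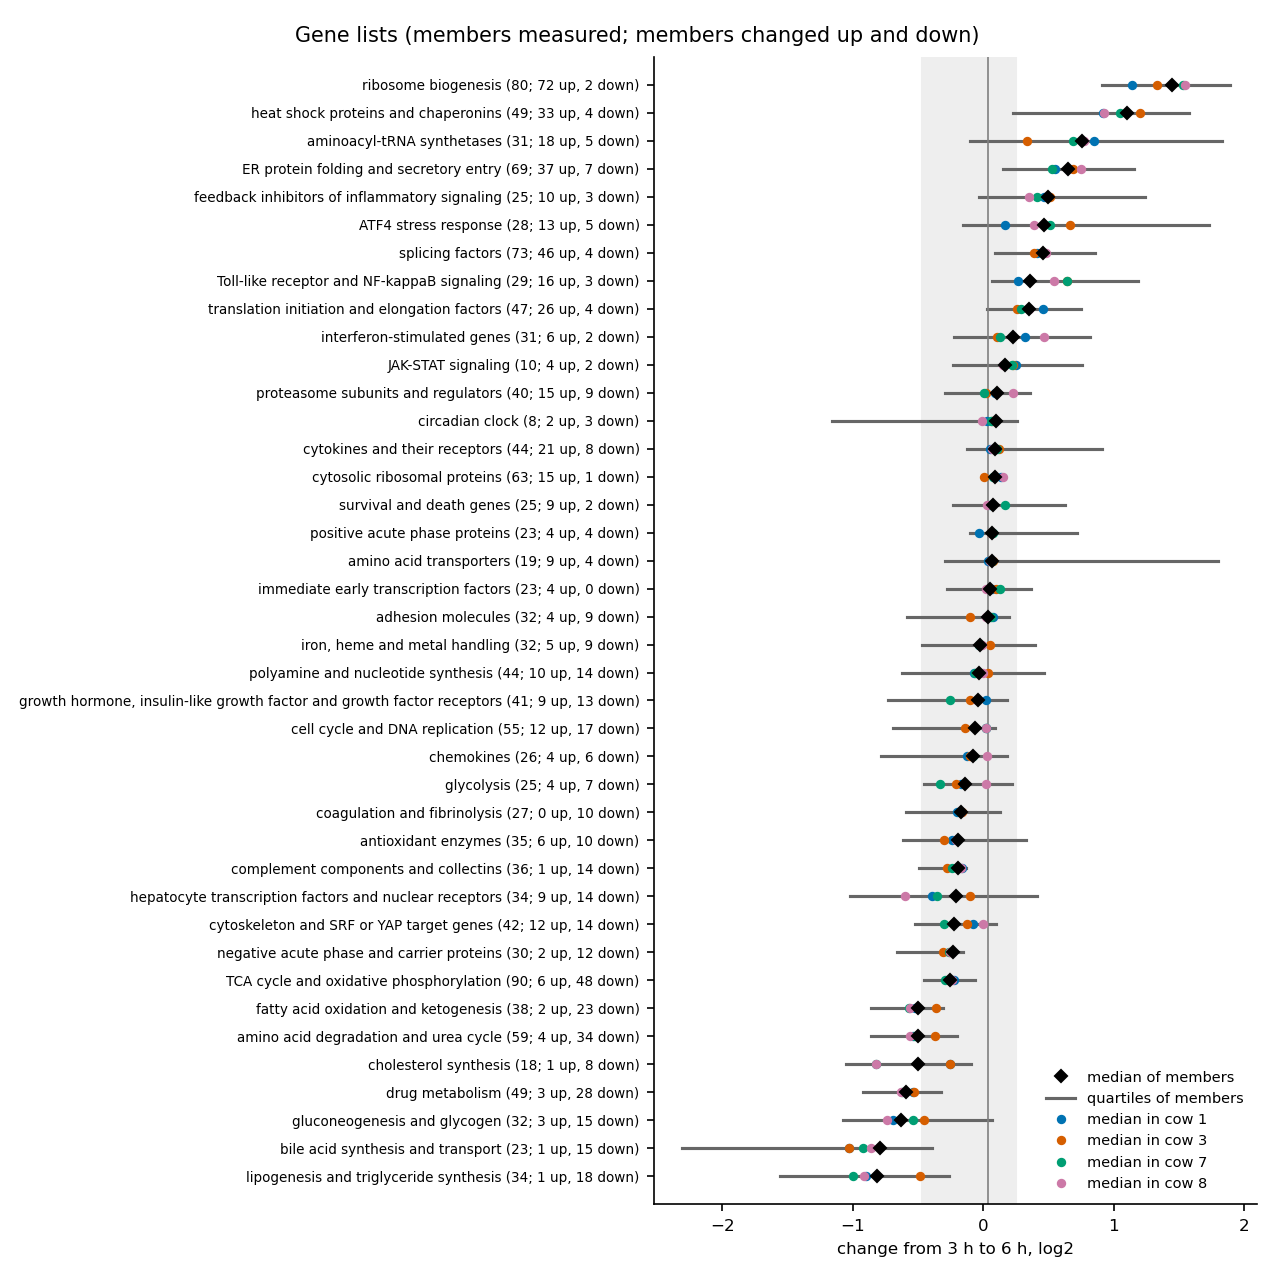
Change from 3 to 6 h (log2) of 40 gene lists: black diamonds are medians and grey lines quartiles over the measured members, and coloured points are the medians in cow 1, 3, 7 and 8. The grey band and line give the quartiles and the median, 0.04, of all 9162 genes; ribosome biogenesis lies highest at 1.45 and lipogenesis lowest at -0.81.

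Immune lists held changes in both directions. Cytokines and their receptors rose in 21 of 44 and fell in 8 (median 0.09), with 13 higher without cow 3. TNFRSF12A, the receptor of the cytokine TWEAK, went from 3.96, 7.62, 4.87 and 3.98 to 9.12, 11.22, 10.46 and 9.01, highest in cow 3 at both hours (change 4.84 ± 0.55, adjusted p = 1.78e-08). TNFRSF1A, the main receptor for tumour necrosis factor, rose by 1.76 ± 0.16 (adjusted p = 1.5e-10). Of 26 chemokines 4 rose and 6 fell (median -0.08), but 1 rose without cow 3 and 3 fell without cow 7. CXCL11, which attracts T cells, rose by 2.98 ± 0.51 (adjusted p = 1.68e-05). TNF and IL6, the classical early cytokines, stood at 2.31 to 2.85 and 2.4 to 2.7 on the 8 arrays, near background.

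In Toll-like receptor and NF-kappaB signalling 16 of 29 rose and 3 fell (median 0.36). RIPK1, an adaptor kinase of death receptors, was at 8.93, 9.12, 8.83 and 8.65 at 3 h and at 11.25, 11.37, 11.20 and 10.95 at 6 h (change 2.31 ± 0.24, adjusted p = 4.49e-09). IRAK1, a kinase behind the interleukin-1 receptor, rose by 2.26 ± 0.12 (adjusted p = 6.7e-15), MYD88, the adaptor that recruits it, by 1.83 ± 0.22 (adjusted p = 6.39e-08), and TLR2, a receptor for bacterial lipoproteins, by 2.16 ± 0.46 (adjusted p = 0.000325). RELA, a subunit of NF-kappaB, rose by 1.06 ± 0.12 (adjusted p = 1.03e-08) and TOLLIP, which dampens the same receptors, by 0.94 ± 0.16. All 4 cows were higher at 6 h in each. Feedback inhibitors rose in 10 of 25 and fell in 3 (median 0.50), led by DUSP1, a phosphatase of stress kinases (2.4 ± 0.41, adjusted p = 2e-05). STAT3, which carries the interleukin-6 signal, rose by 1.51 ± 0.27 (adjusted p = 3.21e-05). Immediate early transcription factors, 13 of which had been 2-fold up at 3 h, rose in 4 of 23 and fell in none (1 without cow 7), with KLF4 at 3.09 ± 0.47 and MAFF at 2.39 ± 0.59, whereas JUN changed by 0.00 ± 0.32.

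Positive acute phase proteins rose in 4 of 23 genes and fell in 4 (median 0.07), and 8 had been 2-fold up at 3 h. With 1 cow left out 2 to 4 of them were higher and 0 (without cow 8) to 2 lower. HP, haptoglobin, the classical bovine acute phase protein, read 15.81, 14.93, 15.57 and 15.21 at 3 h and 15.84, 15.71, 15.78 and 15.77 at 6 h. It was near the upper end of the scale at both hours, where the highest signal was 16.27, and changed by 0.39 ± 1.09 (adjusted p = 0.785). SAA3, serum amyloid A of the mammary type, stood at 12.61, 11.43, 11.44 and 13.80 and then at 13.69, 13.09, 13.02 and 15.04. Each cow lay higher at 6 h, but the cows of the hours overlapped (change 1.39 ± 0.62, adjusted p = 0.0619; adjusted p = 0.00284 with the cow as a fixed block). A2M, a protease inhibitor, rose by 1.70 ± 0.28 (adjusted p = 9.21e-06). Complement components fell in 14 of 36 and rose in 1 (median -0.19), with 7 lower without cow 3, and carrier proteins of the negative acute phase fell in 12 of 30 and rose in 2 (1 without cow 1; median -0.23). TTPA, which loads vitamin E on lipoproteins, fell by 2.08 ± 0.45 (adjusted p = 0.000402; its other probe set moved by -0.25), and MBL2, a lectin that activates complement, by 0.99 ± 0.21 (adjusted p = 0.000321).

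Cytoskeleton and SRF or YAP target genes rose in 12 of 42 and fell in 14 (8 without cow 3; median -0.22). ANKRD1, a nuclear protein induced by stretch, was at 3.79, 9.09, 4.32 and 6.98 at 3 h and at 12.03, 11.28, 10.35 and 10.25 at 6 h. The cows were far apart at 3 h and close at 6 h (change 4.94 ± 1.05, adjusted p = 0.000332). Survival and death genes rose in 9 of 25 (4 without cow 3) and fell in 2 (1 without cow 3; median 0.08). MCL1, which protects mitochondria from the death signal, went from 11.55, 11.73, 11.55 and 11.58 to 12.77, 13.37, 12.95 and 12.70 (change 1.35 ± 0.26, adjusted p = 0.000108), and CDKN1A, which halts the cell cycle, rose by 2.06 ± 0.63 (adjusted p = 0.00932), or 1.62 without cow 3 (adjusted p = 0.123).

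Cell cycle and replication genes rose in 12 of 55 (7 without cow 3) and fell in 17 (median -0.06), with PLK2, a kinase of the stressed cell, at -2.61 ± 0.27 (adjusted p = 2.38e-09). Genes of polyamine and nucleotide synthesis rose in 10 of 44 and fell in 14 (median -0.03), and OAZ2, which marks the polyamine enzyme ODC1 for decay, fell by 2.53 ± 0.31 (adjusted p = 8.42e-08). Proteasome genes rose in 15 of 40 (8 without cow 8) and fell in 9 (4 without cow 3; median 0.11), with PSMD5, an assembly chaperone, at -1.72 ± 0.19. These lists had no common direction. Antioxidant enzymes rose in 6 of 35 and fell in 10 (median -0.19): SOD2, the mitochondrial superoxide dismutase, rose by 1.46 ± 0.19 and GSR, glutathione reductase, fell by 1.77 ± 0.23. Iron, heme and metal handling rose in 5 of 32 (3 without cow 3) and fell in 9 (median -0.02), and HMOX1, which breaks heme down, read 9.10, 10.04, 9.06 and 9.04 at 3 h and 10.93, 10.79, 10.55 and 11.39 at 6 h (change 1.61 ± 0.26, adjusted p = 9.5e-06).

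Growth factor and growth hormone genes rose in 9 of 41 (3 without cow 3) and fell in 13 (median -0.04), and PRLR, the prolactin receptor, fell by 1.20 ± 0.22 (adjusted p = 4.68e-05). Adhesion molecules rose in 4 of 32 (2 without cow 3) and fell in 9 (median 0.04). Clock genes rose in 2 of 8 (1 without cow 3) and fell in 3 (median 0.10), with CRY1, a clock repressor, at 1.10 ± 0.30. Coagulation genes fell in 10 of 27 (6 without cow 3) and rose in none (1 without cow 1; median -0.17), with GGCX, the enzyme that makes clotting factors bind calcium, at -1.09 ± 0.19. Interferon-stimulated genes rose in 6 of 31 (3 without cow 7) and fell in 2 (median 0.23), with PARP14 at 2.05 ± 0.45. JAK-STAT genes rose in 4 of 10 and fell in 2 (1 without cow 3; median 0.17).

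In a whole biopsy fewer cells of a type and less RNA per cell cannot be told apart, and the marker lists of other liver cells are read with that limit. The counts of all cell type lists stand beside 28.7% of all genes called higher and 25.1% called lower. Neutrophil markers rose in 5 of 18 genes (1 without cow 3, 7 without cow 1) and fell in none (median 0.08). The share that rose, 27.8%, was near that of all genes. Of the 18, 12, MPO among them, were below 5 at both hours. S100A9, a calcium-binding protein abundant in neutrophils, rose from 7.51, 7.62, 7.22 and 6.47 to 8.53, 8.99, 8.74 and 8.71 (change 1.54 ± 0.50, adjusted p = 0.013), with an adjusted p = 0.0501 without cow 3 and an adjusted p = 0.0649 without cow 8. Its partner S100A8 rose by 1.35 ± 0.48 (adjusted p = 0.0214), with an adjusted p = 0.0819 without cow 7 and an adjusted p = 0.0848 without cow 8. The list averaged 4.12 to 4.64 over the 3 h arrays and 4.50 to 4.72 over the 6 h arrays. Macrophage and Kupffer cell markers fell in 2 of 18 (1 without cow 3) and rose in 1 (0 without cow 7; median -0.18). MSR1, a scavenger receptor, fell by 2.25 ± 0.36 (adjusted p = 7.49e-06) in its brightest probe set, 1 of 3, which ranged up to 0.12. CD5L, the brightest of the list, changed by -0.45 ± 0.22 (adjusted p = 0.0891; adjusted p = 0.000504 with the cow as a fixed block). The list averaged 7.52 to 8.09 at 3 h and 7.37 to 7.62 at 6 h. The part of either list in the changes above was not tested.

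Endothelial markers fell in 6 of 18 genes (3 without cow 7) and rose in 2 (1 without cow 3; median -0.36, mean level 5.86 to 6.11 at 3 h and 5.56 to 5.80 at 6 h), with PECAM1, a junction protein of endothelium, at -1.21 ± 0.25 (adjusted p = 0.000244). Stellate cell and fibroblast markers fell in 4 of 17 and rose in 1 (median 0.03): ACTA2, smooth muscle actin, read 8.30, 9.60, 9.35 and 9.86 at 3 h and 6.93, 7.32, 5.91 and 8.09 at 6 h (change -2.22 ± 0.58, adjusted p = 0.00302). The cows did not overlap. Markers of T and natural killer cells rose in 1 of 24 (2 without cow 8) and fell in 2, CTSW and NCR3 (0 without cow 3, 3 without cow 1), which also lost their calls without cow 7 and with the block on the 8 arrays, bile duct markers rose in 3 of 9 (0 without cow 7), and none of 7 B cell markers passed the wider call of limma, where JCHAIN, the brightest, changed by -0.33 ± 0.50 (adjusted p = 0.0423 with the cow as a fixed block). Red blood cell markers rose in 3 of 10 (0 without cow 3), by 0.06 or less, and GYPC fell by 1.31 ± 0.36. Of the 4 platelet markers 1 rose, by 0.05 (0 without cow 3, 2 without cow 1). Hepatocyte markers fell in 11 of 22 and rose in none (median -0.17), while ALB, albumin, changed by -0.09 ± 0.05 (adjusted p = 0.128).

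The step from 6 to 9 h, equally long, was set against the step from 3 to 6 h in the same fit. The 9 h group held 8 cows, among them those without a biopsy at 3 or 6 h. The steps therefore differ in animals and in the biopsies taken before. The difference of the steps passed the Benjamini-Hochberg threshold in 1008 genes (11.0%) above 0 and in 1404 genes (15.3%) below 0. A fit restricted to cow 1, 3, 7 and 8 gave 844 genes above 0 and 1183 below 0. Both steps share the 6 h arrays, and the genes named here were taken for their change from 3 to 6 h, so a larger step in them is a description. Among the named genes CLDN2 had the largest step difference, with -5.24 in the step to 6 h and 4.38 ± 0.39 in the step to 9 h (step difference -9.62 ± 0.75, adjusted p = 5.04e-11). KLF15 rose again by 2.76 ± 0.22, MICU3 by 2.70 ± 0.18, FGFR2 by 1.86 ± 0.20, CLDN5 by 3.06 ± 0.32 and ALAS1 by 1.71 ± 0.37. Of the 702 first falling genes 168 were called higher from 6 to 9 h, and of the 539 first rising genes 105 were called lower, where 19.8% and 13.4% of all genes were called higher and lower in that step.

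Among the genes that turned down, PPARD fell by 2.10 ± 0.23 from 6 to 9 h, THAP1 by 1.71 ± 0.30 and MARCHF3 by 1.79 ± 0.43. HSPA8 fell by 1.73 ± 0.31 and was at 14.13 ± 0.60 (SD, n = 8) at 9 h, near its -22 h level of 13.92. CCL20, a chemokine for dendritic and T cells, read 7.34, 5.94, 5.55 and 6.61 at 3 h and 5.79, 8.89, 7.75 and 6.81 at 6 h, lower in cow 1 and higher in the other 3 cows. Its change in the step was 0.95 ± 0.42 (adjusted p = 0.0604), and 1.79 (adjusted p = 0.000722) without cow 1. From 6 to 9 h it fell by 5.34 ± 0.37 to background. Other genes kept going at the same pace: UGT2B10 fell by 3.36 ± 0.28 from 6 to 9 h after -3.30 (step difference 0.06 ± 0.53, adjusted p = 0.95) and UPP2, uridine phosphorylase, by 3.21 ± 0.28 after -2.63 (step difference 0.57 ± 0.55, adjusted p = 0.468). BAMBI rose by 2.00 ± 0.35 after 2.03 (step difference 0.03 ± 0.68, adjusted p = 0.983).

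**Figure D5:**
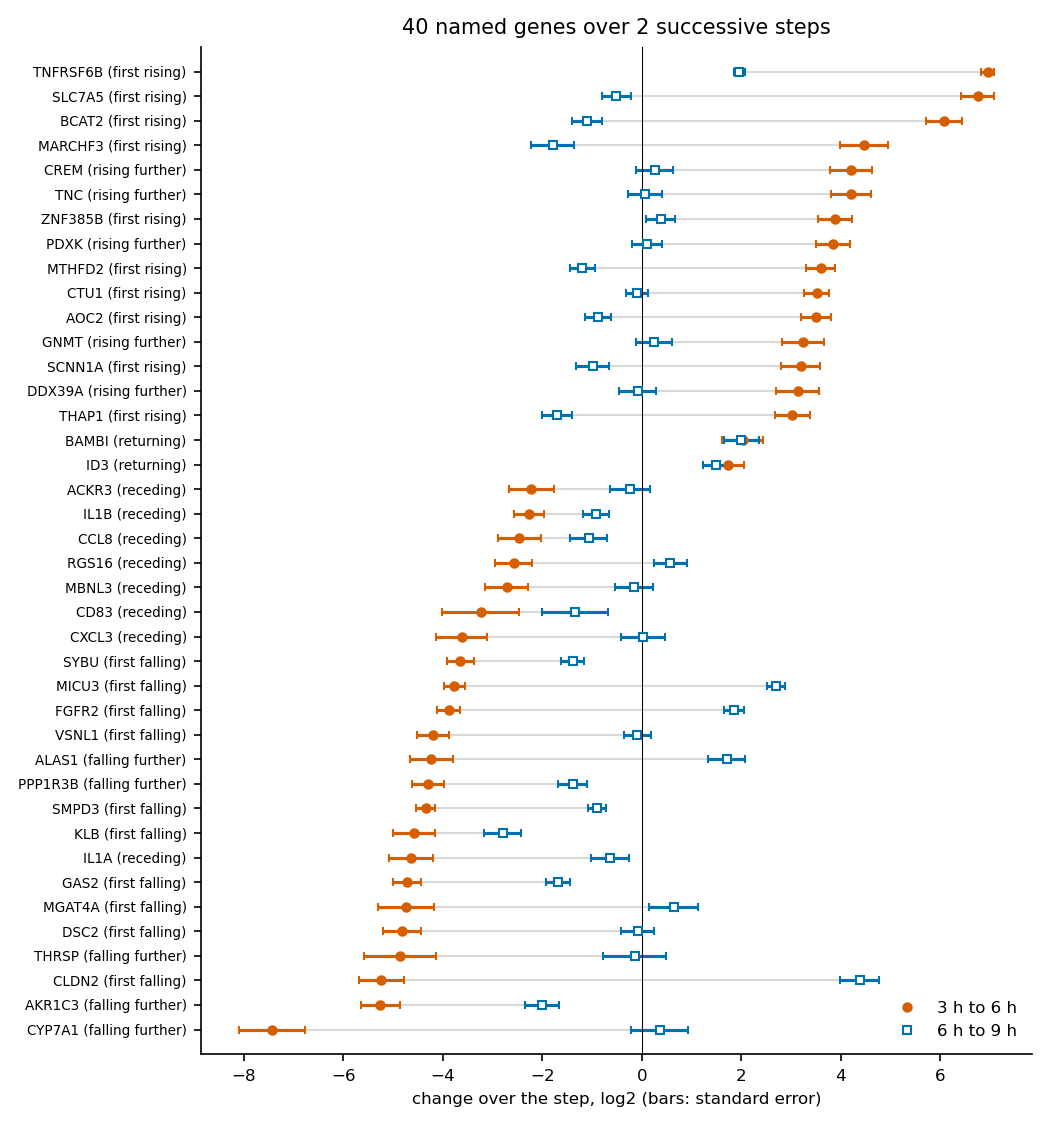
Change from 3 to 6 h (filled circles) and from 6 to 9 h (open squares) of the 40 named genes of the timing classes, log2, with standard errors as bars. CLDN2, KLB, MICU3 and TNFRSF6B show the spread of the second step, which brings CLDN2 and MICU3 back up, takes KLB further down by 2.80 and TNFRSF6B further up by 1.96.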

How the data were processed

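RNA of liver biopsies was hybridised to the Affymetrix Bovine Genome Array. The authors summarised the probes to log2 values with GCRMA, per the labels and the methods, and deposited 1 value per probe set and array. Starting from these values, limma 3.58.1 in R 4.3.3 fitted 1 mean per hour to all 36 arrays with no term for the cow. The contrast was 6 h minus 3 h, two-sided, with the Bonferroni threshold at 0.01 and the Benjamini-Hochberg threshold at 0.05 over 24128 probe sets. A gene was read from its brightest probe set among the 13292 that the platform annotation ties to 1 gene. Symbols were updated through the RefSeq gene table (9141 of 9162 genes matched). P-values in the text without another name are limma's, Benjamini-Hochberg adjusted, and ± with a change is its standard error. The number of arrays limits the precision.

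The same cow pairs the arrays. Deviations from the hour means at 3 and 6 h correlated at 0.42 to 0.487 within a cow and at -0.151 on average between cows. Named genes were the 10 largest first rising and first falling, the 8 largest receding, up to 5 of the other classes, the 3 largest called members and the brightest member of each list, and genes the paper names, with no unnamed locus. Where a class had too few Bonferroni calls, its wider calls were ranked. The 40 process and 10 cell type lists hold 2109 symbols, of which 1623 were measured. The members and lists were chosen with earlier results of these data known. On simulated data with planted log2 changes of 0.5, 1 and 2, the wider call found 20%, 68% and 98%. The simulation gave the cows no effect of their own and changed only brighter probe sets, 50 per size. That is far fewer than were called in the data, and the Benjamini-Hochberg cutoff depends on this share. The rates may therefore differ in these data. Promoter motifs were not analysed here.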

Additional observations from a re-analysis of the deposited data

Results flagged for a closer look

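Of 120 groups of 4 cows (levels at 3 h, levels at 6 h and within-cow differences of the 40 named genes of the timing classes), 10 held a cow far from the others, where chance gives about 1 in 20. Cow 3 stood apart in BCAT2 at 3 h (2.92, others from 3.40), DSC2 at 6 h (2.72, others from 3.61), GAS2 at 3 h (9.30, others to 8.64), the RGS16 difference (-3.25, others -2.44 to -2.31) and CREM at 6 h (11.83, others to 11.18). Cow 1 stood apart in DSC2 at 3 h (7.99, others from 8.29) and in the FGFR2 difference (-3.0, others -4.26 to -4.12). Cow 7 did so in CXCL3 at 6 h (3.91, others to 3.70) and THRSP at 6 h (2.84, others to 2.25), and cow 8 in VSNL1 at 6 h (2.57, others from 2.80). The changes from 3 to 6 h of these genes had the same direction in the 4 cows, which was a condition for naming them.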

How the results depend on the processing

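On the 8 arrays alone with the replicate block by cow, 6 probe sets were higher and 9 lower at Bonferroni 0.01 and 3816 higher by the wider call. On the 8 arrays with no block the Bonferroni calls were 128 and 123. With the 4 cows at all hours 668 were lower by Bonferroni, 4915 higher by the wider call and 16 genes falling further. With the cow as a fixed block, 1805 of the 1968 Bonferroni calls remained and all 1968 passed the wider call. The wider call gave 4857 higher with median centring and 3245 without dim probe sets, and the upward share was 64.1% in all and 43.9% among these. Array weights gave 1561 and 1608 Bonferroni calls, 5 genes returning, 48 falling further and 2111 with the step difference above 0. A Benjamini-Hochberg threshold of 0.01 gave 3669 and 3272 in place of the Bonferroni calls, which were 965 and 1003.

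With 1 cow left out, Bonferroni calls were 521 to 674 higher and 582 to 684 lower, wider calls 3346 to 7921 higher, and genes returning 2 to 4. By Bonferroni calls the classes held 330 first rising, 357 first falling, 7 receding, 0 returning, 11 rising further and 2 falling further. Without a minimum fold they held 2239, 1967, 48, 27, 212 and 120. At 1.5-fold they held 1018 first rising, 1424 first falling, 8 returning, 162 rising further and 71 falling further. With an unchanged limit of 0.3 they held 399 first rising and 505 first falling.

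Of 238 named genes, 198 lost no call under any alternative tried, and none that was called changed direction. The 198 include genes without a call in the fit of all arrays, ALB and HP among them, which had none to lose. The cow as a fixed block lost none of their calls and gained 7, the block on the 8 arrays lost 15 and gained 11, and leaving out cow 3 lost 24. The medians of 13 of the 50 lists, chemokines, immediate early factors and clock genes among them, changed sign under at least 1 alternative. The 8-array fits give no classes and no step difference, since they hold no -22 h or 9 h arrays. Dim probe sets and 4 cows limit small changes.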
